A study of Homo sapiens with 8 samples.

Results

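The miR-17-92 cluster is a group of microRNAs cut from a single RNA, the transcript of the host gene MIR17HG. The guide strands of its 6 hairpins are hsa-miR-17-5p, hsa-miR-18a-5p, hsa-miR-19a-3p, hsa-miR-20a-5p, hsa-miR-19b-3p and hsa-miR-92a-3p. They were taken by name and not by any measured value, and they are 6 of the 342 microRNAs and of the 2962 small RNA features counted. The small RNA came from HEK293 cells, an established human embryonic kidney line, transfected at 50 nM with Lipofectamine RNAiMax. The tDR group (4 libraries) was given a mimic of the tRNA-Asp-GTC 3′ tDR, a tRNA-derived small RNA, and the scramble group (4 libraries) was given a scramble control mimic. Both groups went through the same transfection, collection at 48 hours, TRIzol extraction and OTTR-seq, a method in which a reverse transcriptase joins the adapters while it copies the RNA. The labels do not say whether the libraries of a group came from separate cultures, so the p-values reflect library-to-library spread that may be technical only.

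A microRNA gene is transcribed as a long primary RNA, from which Drosha cuts hairpins and Dicer then cuts short duplexes. One strand of each duplex, the guide, is kept by an Argonaute protein and pairs with messenger RNAs mainly through its seed, bases 2 to 8, while the other strand, the passenger, is mostly lost. The miR-17-92 host gene is activated by MYC and E2F factors, the cluster is amplified or overexpressed in B cell lymphoma and other tumours, and its loss disturbs development of the heart, lung and B cells in mice. Since the 6 hairpins leave 1 primary transcript, differences between their mature levels arise after transcription or in the measurement, apart from members that a second gene copy also makes.

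The 6 mature sequences carry 4 different seeds, and they are shown here because the seed sets which of the members share targets. Each is printed 5′ to 3′ from RefSeq for GRCh38.p14, in the order of the hairpins along the transcript, with the seed in capitals.
hsa-miR-17-5p: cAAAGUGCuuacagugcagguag
hsa-miR-18a-5p: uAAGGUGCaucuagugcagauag
hsa-miR-19a-3p: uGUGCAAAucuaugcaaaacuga
hsa-miR-20a-5p: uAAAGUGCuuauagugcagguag
hsa-miR-19b-3p: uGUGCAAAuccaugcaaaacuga
hsa-miR-92a-3p: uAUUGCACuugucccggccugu
The first, miR-17-5p, and miR-20a-5p share the seed AAAGUGC, and both repress E2F1 and the cell cycle inhibitor CDKN1A. Positions here are counted from the 5′ end of the first sequence named, and miR-20a-5p differs from miR-17-5p by C1U and C12U. The pair miR-19a-3p and miR-19b-3p share the seed GUGCAAA and differ by U11C alone. The seeds of miR-18a-5p, AAGGUGC, and of miR-92a-3p, AUUGCAC, occur in 1 member each. Among the known targets of miR-92a-3p is the integrin subunit ITGA5 in endothelial cells. Its mature strand has 22 bases and a GC content of 54.5%, while the others have 23 bases and GC contents between 34.8% and 47.8%.

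In GENCODE release 29 for GRCh38, MIR17HG lies on the plus strand of chromosome 13, from 91347820 to 91354579. The 6 hairpins of RefSeq lie within it in a stretch of 787 bases, from 91350605 to 91351391. Each hairpin falls in an exon of 2 of the 3 annotated transcripts and in an intron of the third. Gaps between neighbouring hairpins run from 35 bases, between MIR19B1 and MIR92A1, to 92 bases, between MIR19A and MIR20A. Identical mature copies of miR-19b-3p and miR-92a-3p are also made on the minus strand of the X chromosome, from MIR19B2 (134169671 to 134169766) and MIR92A2 (134169538 to 134169612). Reads of these copies cannot be told apart by mature sequence. Whether the authors' counting pooled, split or dropped them is not stated, so the values of these 2 members may cover both loci.

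Library totals ran from 6910186 to 8007025 counts in the tDR libraries and from 4016295 to 10246336 in the scramble libraries. MicroRNAs were a small part of them, at 0.497% ± 0.145 of all counts in tDR libraries and 0.719% ± 0.203 in scramble libraries (SD, n = 4 each). The tDR libraries 3 and 4 held the least microRNA, 0.355% and 0.414%, and scramble library 4 the most, 0.948%. Reads of the control mimic itself, counted apart from the genes, made up 0.000737% to 0.00347% of the counts in tDR libraries, against 0.352% to 0.565% in scramble libraries. Of listed marker microRNAs of other tissues, 0 of 1 for liver, 0 of 2 for fibroblasts, 1 of 6 for blood and 2 of 3 for muscle were counted. The blood marker reached 0.835 CPM in tDR libraries and 0.948 CPM in scramble libraries, and the muscle sum ran from 1.54 to 3.82 CPM in tDR libraries and 0.254 to 2.09 CPM in scramble libraries. Both of 2 endothelial markers were counted, with sums of 5.29 to 9.95 CPM in tDR libraries and 4.32 to 6.51 CPM in scramble libraries. The kidney list had 4 of 6 with an entry and sums of 11.6 to 18.0 CPM in tDR libraries and 14.2 to 21.6 CPM in scramble libraries, and the neuron list (3 of 3) summed to 36.7 to 64.4 CPM in tDR libraries and 46.0 to 69.2 CPM in scramble libraries. One neuron marker, miR-128-3p, with 32 to 138 counts a library, was called lower in tDR libraries (log2 fold change -1.10, edgeR adjusted p = 0.00769). The more abundant neuron marker miR-9-5p, with 228 to 657 counts a library, was not called (-0.098, edgeR adjusted p = 0.856). The last of that list, miR-124-3p, with 0 to 6 counts a library, was not tested. CPM is the depth-normalised read count, scaled here by TMM, a factor per library that evens out composition over all features. The part of these lists in the results below was not tested. In bulk samples fewer cells making an RNA and less of it per cell cannot be told apart.

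The yield of the 6 guide strands from their common transcript was unequal in every library. Averaged over the 8 libraries, miR-19b-3p stood at 1462 CPM, miR-92a-3p at 613 CPM and miR-19a-3p at 492 CPM. The other members were far lower, with miR-18a-5p at 192 CPM, miR-17-5p at 186 CPM and miR-20a-5p at 135 CPM. These are CPM and not molecules per cell, since the capture of each sequence by the library method was not measured. Per base of mature sequence the order was the same, with 63.6 CPM for miR-19b-3p, 27.9 for miR-92a-3p, 21.4 for miR-19a-3p, 8.34 for miR-18a-5p, 8.11 for miR-17-5p and 5.85 for miR-20a-5p. The span between the ends of the order, miR-19b-3p over miR-20a-5p, was 9.15-fold to 11.8-fold in the single libraries. Among all microRNAs by mean read count, not scaled for depth, the 6 took ranks 1, 2, 3, 5, 6 and 8, with miR-15b-5p at rank 4 and miR-26a-5p at rank 7.

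Neighbours in the order kept the same direction in all 8 libraries in 4 of 5 steps. The order came from mean levels over these same libraries, so the data tested also set the direction of each step. The p-values below pool tDR and scramble libraries and describe only how steady a step was. On the log2 scale miR-19b-3p exceeded miR-92a-3p by 1.27 ± 0.34 (SD over 8 libraries), miR-19a-3p exceeded miR-18a-5p by 1.34 ± 0.18, and miR-17-5p exceeded miR-20a-5p by 0.47 ± 0.093. Each of these held in 8 of 8 libraries, with an exact two-sided sign-flip permutation p of 0.00781, the smallest that 8 libraries allow, and 0.00977 after Benjamini-Hochberg adjustment over the 5 steps. The step of miR-92a-3p over miR-19a-3p also held in 8 of 8 libraries with the same p-values, at 0.31 ± 0.28, but it was 0.12 on average in tDR libraries and 0.50 in scramble libraries. The remaining neighbours, miR-18a-5p and miR-17-5p, did not differ beyond their spread (0.029 ± 0.20, higher in 4 of 8 libraries, exact permutation p = 0.734).

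**Figure D1:**
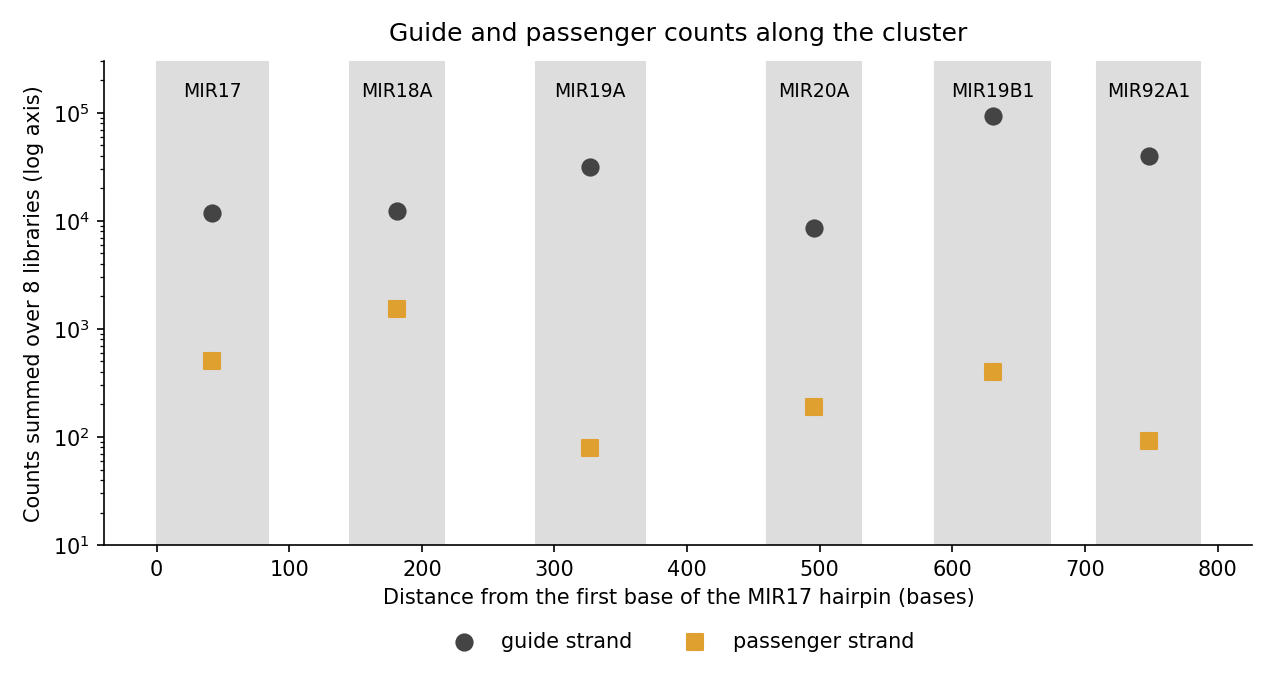
Counts summed over the 8 libraries (log axis) for the guide strand (circles) and passenger strand (squares) of each hairpin (grey bands), placed by distance in bases from the first base of the MIR17 hairpin. The guide strand exceeds its passenger at every hairpin, and the smallest gap is at MIR18A, with 12279 guide and 1514 passenger counts.

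The arm named as the guide outnumbered its passenger at every hairpin in all 8 libraries, and by how much differed between hairpins. The guide is the 5p arm at MIR17, MIR18A and MIR20A, and the 3p arm at MIR19A, MIR19B1 and MIR92A1. These are shares of counts, since the capture of each sequence was not measured. Guide strands made up 99.6% of the counts of both arms at MIR92A1, 99.8% at MIR19A and 99.6% at MIR19B1 on average in tDR libraries, against 99.8%, 99.7% and 99.5% in scramble libraries. At MIR18A, the hairpin with the most passenger, the guide share was 89.5% ± 2.07 in tDR libraries and 88.9% ± 0.245 in scramble libraries. Over all libraries miR-18a-5p had 8.11 counts for each count of miR-18a-3p, while miR-92a-3p had 436 for each count of miR-92a-1-5p. The passengers miR-19a-5p and miR-92a-1-5p were rare, with 79 and 91 counts in all 8 libraries. For MIR19B1 and MIR92A1 the guide counts may include the X-linked copies, while the passenger counts are of the chromosome 13 arms. The X-linked passengers, miR-19b-2-5p and miR-92a-2-5p, had no entry in the counts used. The ratios at these 2 hairpins thus may not describe the chromosome 13 locus alone.

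Guide shares per hairpin overlapped between the groups at all 6 hairpins. The smallest p was at MIR92A1, where the guide share was 99.6% ± 0.0883 in tDR libraries and 99.8% ± 0.0775 in scramble libraries (SD, n = 4 each, exact permutation p = 0.0571, and 0.286 adjusted over the 6 hairpins).

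The near copies of the members on other transcripts were far less abundant. They are shown because a few bases part them from a member, with the seed in capitals.
hsa-miR-106a-5p: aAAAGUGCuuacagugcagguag
hsa-miR-18b-5p: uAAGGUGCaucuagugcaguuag
hsa-miR-25-3p: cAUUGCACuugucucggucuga
Over the 8 libraries miR-17-5p summed to 11840 counts and miR-106a-5p, which differs from it by C1A, to 354, a ratio of 33.4. Likewise miR-18a-5p summed to 12279 counts and miR-18b-5p, with A20U, to 245, a ratio of 50.1. For miR-20a-5p the sum was 8552 counts, and for miR-20b-5p it was 16. The hairpins of miR-106a-5p, miR-18b-5p and miR-20b-5p lie on the minus strand of the X chromosome, as do MIR19B2 and MIR92A2. Another microRNA from there, miR-363-3p, had no entry in the counts used. What the X-linked copies add to miR-19b-3p and miR-92a-3p was not tested. The largest relative was miR-25-3p of the miR-106b-25 cluster, which differs from miR-92a-3p by U1C, C14U, C18U and U22A, with 7976 counts against 39683 for miR-92a-3p. Reads that lose or change a base could be counted under the wrong name within such pairs, and the assignment rule is not given in the sources used.

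By seed, the members made up most of what was counted in their families. The share of family counts held by the members was 100% for the miR-19 seed, 98.0% for the miR-18 seed, 88.1% for the miR-17 seed and 82.1% for the miR-92 seed. In the miR-92 family the share of miR-92a-3p was 76.4% to 81.1% in tDR libraries, against 82.8% to 84.5% in scramble libraries, and these ranges did not overlap.

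Set against the scramble libraries, miR-92a-3p fell to 0.580 of its level and was the only guide strand of the 6 past the edgeR threshold of adjusted p below 0.05. It stood at 577, 562, 311 and 352 CPM in tDR libraries 1 to 4, against 670, 691, 783 and 962 CPM in scramble libraries 1 to 4. Every tDR library lay below every scramble library. The means were 450 ± 139 CPM in tDR libraries and 777 ± 133 CPM in scramble libraries (SD, n = 4 each), with a log2 fold change of -0.79 (SE 0.20, edgeR quasi-likelihood test with Benjamini-Hochberg adjustment over 1761 features, adjusted p = 0.0229). Leaving out 1 library at a time, edgeR kept the call in 6 of 8 cases, and lost it without tDR library 4 (log2 fold change -0.68, adjusted p = 0.0812) or scramble library 4 (-0.69, adjusted p = 0.0836). Without tDR libraries 3 and 4, the libraries lowest in microRNA, edgeR gave a log2 fold change of -0.45 (adjusted p = 0.143).

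edgeR called 24 of 1761 features lower in tDR libraries (1.36%) and 94 higher, a split that was 39 lower and 54 higher with total counts as the scale and 1 lower and 157 higher with TMM on microRNAs alone. Among the 196 microRNAs tested, 9 were called lower (4.59%) and 0 higher by edgeR, with 51 lower and 8 higher at an unadjusted p below 0.05, and DESeq2 called 21 lower and 2 higher. Of the 6 guide strands 1 was called lower and 0 higher by edgeR, with 2 lower and 0 higher at an unadjusted p below 0.05, and DESeq2 called 2 lower and 0 higher. The share of members called thus rests on 1 microRNA. In CPM, 20 of 196 microRNAs (10.2%) had all tDR libraries below all scramble libraries, and again miR-92a-3p was the 1 such member of 6. Log2 fold changes of all 6 members were below 0, with a median of -0.37, beside a median of -0.33 over the 196 microRNAs, of which 159 were below 0, and a median of 0.020 over all 1761 features. From the lowest fold change upwards, the members took places 23 (miR-92a-3p), 50 (miR-18a-5p), 77 (miR-19a-3p), 101 (miR-19b-3p), 102 (miR-17-5p) and 103 (miR-20a-5p) of 196.

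The next member was miR-18a-5p, whose own primary hairpin is known to be bound by the splicing factor hnRNP A1. It had 173, 196, 123 and 117 CPM in tDR libraries 1 to 4, against 169, 228, 253 and 275 CPM in scramble libraries 1 to 4. The groups overlapped through scramble library 1, which lay below tDR libraries 1 and 2. Means were 153 ± 38.3 CPM in tDR libraries and 231 ± 45.8 CPM in scramble libraries (SD, n = 4 each), and the log2 fold change of -0.60 (SE 0.19) had an edgeR unadjusted p of 0.00455 and an adjusted p of 0.0598. It passed under 9 of 19 alternatives, among them the DESeq2 Wald test (adjusted p = 0.0142).

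The most abundant member, miR-19b-3p, spread widely within each group. Its level was 1675, 1649, 932 and 943 CPM in tDR libraries 1 to 4, against 987, 1491, 1772 and 2244 CPM in scramble libraries 1 to 4. The tDR libraries fell into a high pair, 1 and 2, and a low pair, 3 and 4, while scramble library 1 lay close to the low pair. The log2 fold change was -0.32 (SE 0.23, edgeR adjusted p = 0.448), and without tDR libraries 3 and 4 it was 0.033. Its seed partner miR-19a-3p had 553, 536, 291 and 298 CPM in tDR libraries 1 to 4, against 352, 545, 626 and 735 CPM in scramble libraries 1 to 4, with the same pairs of libraries high and low. Its log2 fold change was -0.43 (SE 0.23, edgeR adjusted p = 0.299).

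The members of the miR-17 seed also overlapped between the groups. For miR-17-5p the values were 219, 202, 126 and 117 CPM in tDR libraries 1 to 4, against 170, 180, 217 and 261 CPM in scramble libraries 1 to 4. Its log2 fold change was -0.32 (SE 0.20, edgeR adjusted p = 0.377), and without tDR libraries 3 and 4 it was 0.024. For miR-20a-5p the values were 155, 140, 96.0 and 88.9 CPM in tDR libraries 1 to 4, against 108, 128, 164 and 197 CPM in scramble libraries 1 to 4. Its log2 fold change was likewise -0.32 (SE 0.20, edgeR adjusted p = 0.392). In both members tDR libraries 1 and 2 lay inside the range of the scramble libraries, and tDR libraries 3 and 4 lay below it.

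**Figure D2:**
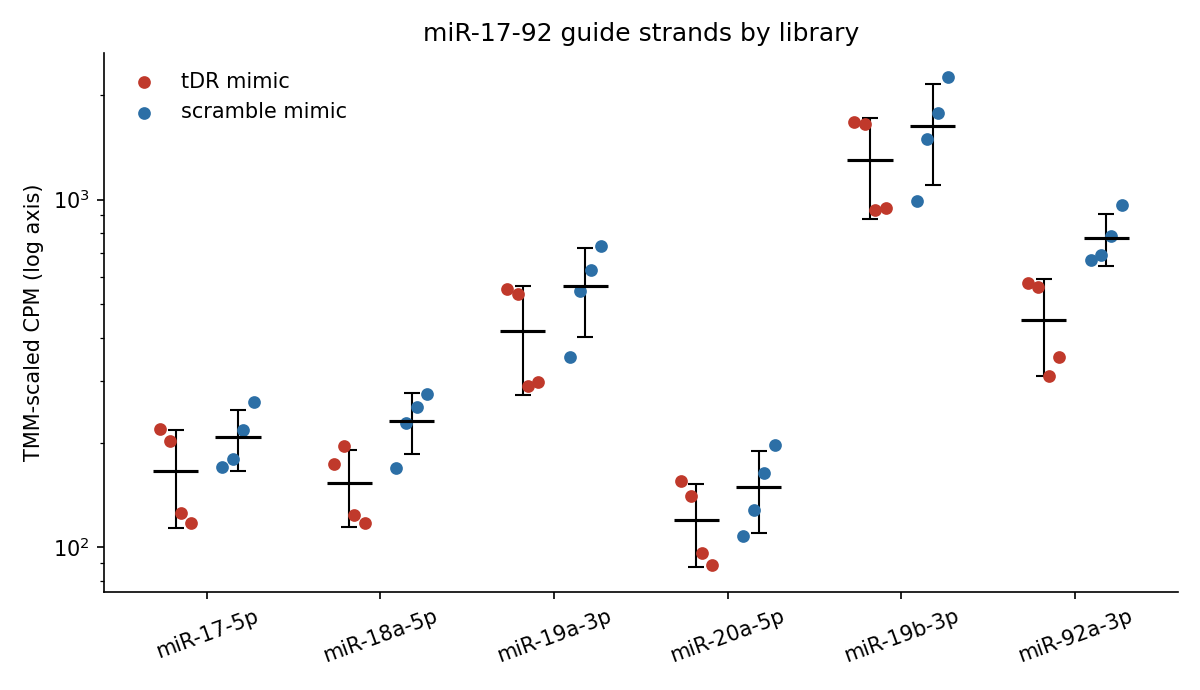
TMM-scaled CPM (log axis) of the 6 guide strands in the 4 tDR libraries (red) and 4 scramble libraries (blue), each in the order 1 to 4, with the mean and SD of each group. The groups stand apart for miR-92a-3p, at 311 to 577 CPM in tDR libraries and 670 to 962 CPM in scramble libraries, and overlap for the other 5.

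Summed over the 6 members, the cluster stood at 3351, 3285, 1878 and 1916 CPM in tDR libraries 1 to 4, against 2457, 3263, 3816 and 4673 CPM in scramble libraries 1 to 4. The groups overlapped, since tDR libraries 1 and 2 exceeded scramble libraries 1 and 2. Means were 2608 ± 821 CPM in tDR libraries and 3552 ± 933 CPM in scramble libraries (SD, n = 4 each), a difference of -0.46 in log2 CPM. The difference was -0.059 without tDR libraries 3 and 4 and -0.63 without scramble library 1. All other microRNAs together summed to 2600 ± 536 CPM in tDR libraries and 3191 ± 546 CPM in scramble libraries. The cluster level moved with the microRNA content of the libraries. The 6 themselves made up 46.6% (tDR library 4) to 55.2% (scramble library 4) of that content, so part of this relation is built in. The part of microRNA content in the differences above was not tested.

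**Figure D3:**
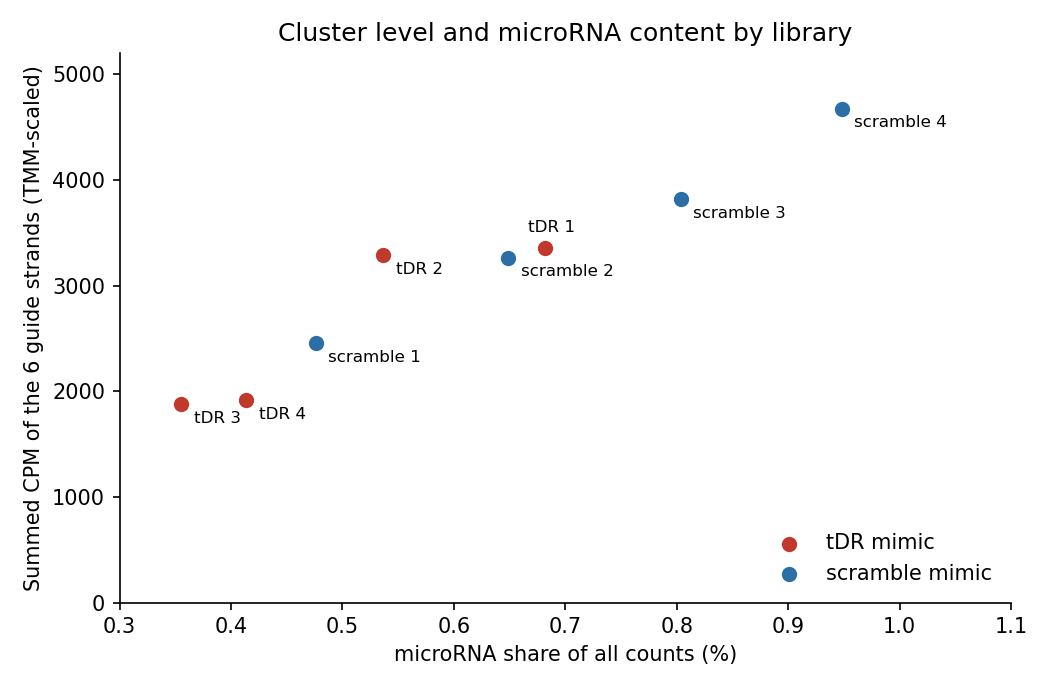
Summed TMM-scaled CPM of the 6 guide strands against the percentage of all counts that fell on microRNAs, with 1 point for each library (tDR red, scramble blue). The lowest sums, 1878 and 1916 CPM, belong to tDR libraries 3 and 4 with 0.355% and 0.414% microRNA, and the highest, 4673 CPM, to scramble library 4 with 0.948%. The 2 axes share counts, since the 6 are 46.6% to 55.2% of the microRNA counts of a library.

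Counted as a share of microRNA counts alone, the cluster held 52.2%, 51.8%, 47.4% and 46.6% in tDR libraries 1 to 4, against 49.3%, 52.0%, 52.6% and 55.2% in scramble libraries 1 to 4. The means of 49.5% ± 2.89 in tDR libraries and 52.3% ± 2.42 in scramble libraries (SD, n = 4 each) differed by -2.76 points, with overlapping groups. Without tDR libraries 3 and 4 the difference was -0.28 points. For single members on this scale, 2 of 6 lay lower in every tDR library than in any scramble library and 0 of 6 lay higher, while 14 of 196 microRNAs (7.14%) lay lower and 14 of 196 (7.14%) lay higher. One was miR-92a-3p, at 8.98%, 8.86%, 7.84% and 8.57% of microRNA counts in tDR libraries 1 to 4, against 13.5%, 11.0%, 10.8% and 11.4% in scramble libraries 1 to 4. The other was miR-18a-5p, at 2.70%, 3.09%, 3.12% and 2.86% in tDR libraries 1 to 4, against 3.39%, 3.63%, 3.49% and 3.25% in scramble libraries 1 to 4. The remaining 4 members overlapped, for instance miR-19b-3p with 24.6% ± 1.63 in tDR libraries and 23.6% ± 2.80 in scramble libraries (SD, n = 4 each).

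**Figure D4:**
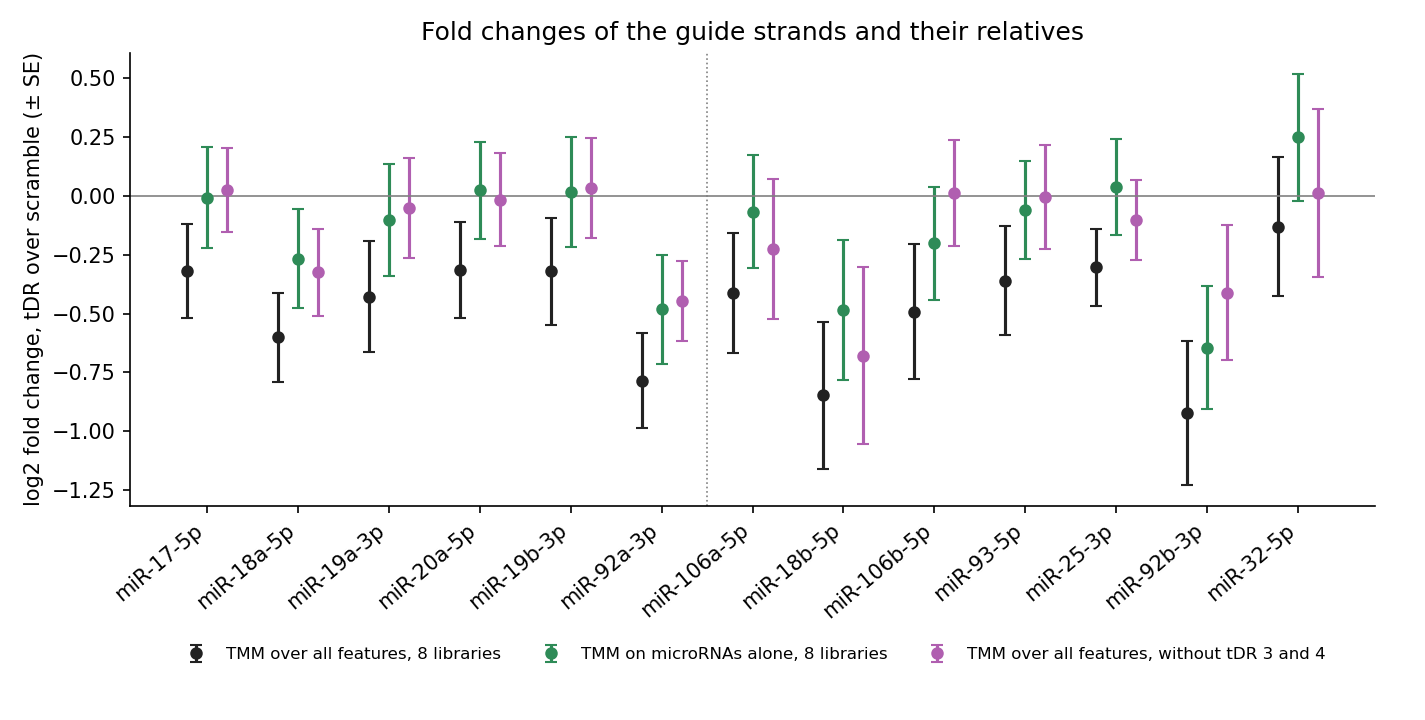
Log2 fold change of tDR over scramble with its SE for the 6 guide strands (left of the dotted line) and 7 related microRNAs, from edgeR with TMM over all features, with TMM on microRNAs alone, and without tDR libraries 3 and 4. With TMM over all features and all 8 libraries, all 13 lie below 0. Under both other settings miR-92a-3p stays the lowest of the 6, at -0.48 and -0.45. The setting without tDR libraries 3 and 4 also uses TMM over all features.

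The sign of miR-19b-3p and miR-20a-5p, neither of them called, depends on what the counts are scaled to. TMM factors from microRNAs alone moved the median of the 196 microRNAs to 0.0047 and that of all features to 0.36. With them miR-19b-3p stood at a log2 fold change of 0.017 (SE 0.23) and miR-20a-5p at 0.024 (SE 0.21), both less than their SE from 0. On that scale miR-92a-3p stood at -0.48 (edgeR adjusted p = 0.199) and miR-18a-5p at -0.27. The values of miR-19a-3p, -0.10 (SE 0.24), and miR-17-5p, -0.0084 (SE 0.21), were below 0 by less than their SE.

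The make-up of the cluster needs no scaling between libraries, since each member is given as a share of the 6. The share of miR-92a-3p was 17.2%, 17.1%, 16.5% and 18.4% in tDR libraries 1 to 4, against 27.3%, 21.2%, 20.5% and 20.6% in scramble libraries 1 to 4. All tDR libraries lay below all scramble libraries, and scramble library 1 lay far above the rest. The share of miR-19b-3p was 50.0%, 50.2%, 49.6% and 49.2% in tDR libraries 1 to 4, against 40.2%, 45.7%, 46.5% and 48.0% in scramble libraries 1 to 4. Here all tDR libraries lay above all scramble libraries, and scramble library 1 lay lowest. Exact Clopper-Pearson 95% half-widths for counting error were at most 0.847 points for any member in any library. For miR-92a-3p the nearest libraries were tDR 4, with an interval of 17.72% to 19.02%, and scramble 3, with 19.93% to 21.15%. For miR-19b-3p the nearest were tDR 4, with 48.38% to 50.06%, and scramble 4, with 47.60% to 48.44%. The intervals thus overlapped at the edge of the groups for miR-19b-3p and not for miR-92a-3p.

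The mean share of miR-92a-3p was 17.3% ± 0.766 in tDR libraries and 22.4% ± 3.27 in scramble libraries, a difference of -5.09 points (SD, n = 4 each, exact two-sided permutation p = 0.0286, the smallest that 4 against 4 allows, and 0.0857 after Benjamini-Hochberg adjustment over the 6 shares). For miR-19b-3p it was 49.8% ± 0.429 in tDR libraries and 45.1% ± 3.40 in scramble libraries, a difference of 4.66 points (SD, n = 4 each, exact permutation p = 0.0286, adjusted 0.0857). Neither passed the adjustment, and as shares sum to 100%, the 2 differences are not independent. Without scramble library 1 they were -3.46 and 3.03 points, and the groups still did not overlap. The other 4 shares overlapped, with 16.0% ± 0.523 in tDR libraries and 15.8% ± 1.05 in scramble libraries for miR-19a-3p, 6.37% ± 0.284 in tDR libraries and 5.93% ± 0.671 in scramble libraries for miR-17-5p (SD, n = 4 each). For miR-18a-5p they were 5.96% ± 0.583 in tDR libraries and 6.60% ± 0.496 in scramble libraries, and for miR-20a-5p 4.66% ± 0.349 in tDR libraries and 4.21% ± 0.201 in scramble libraries (SD, n = 4 each).

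**Figure D5:**
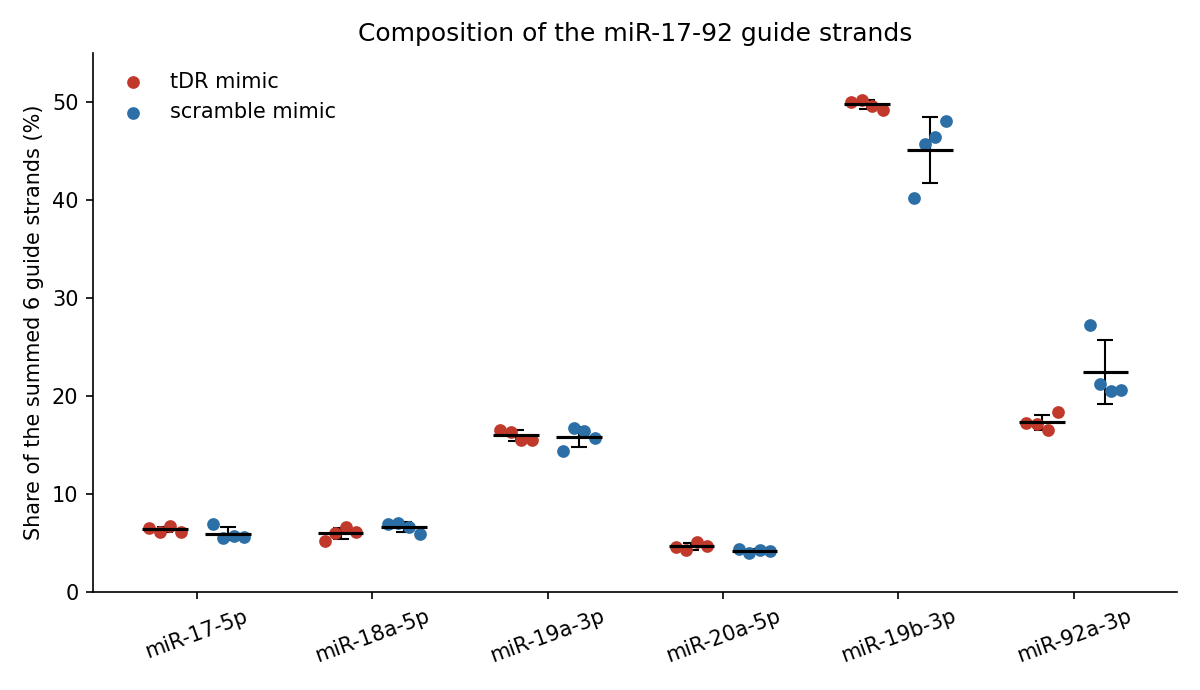
Share of each guide strand in the summed counts of the 6 (percent) for the 4 tDR libraries (red) and 4 scramble libraries (blue), each in the order 1 to 4, with the mean and SD of each group. The share of miR-92a-3p is 16.5% to 18.4% in tDR libraries and 20.5% to 27.3% in scramble libraries, and that of miR-19b-3p is 49.2% to 50.2% in tDR libraries and 40.2% to 48.0% in scramble libraries.

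Ratios between members within a library need no scaling either. There were 0.333 to 0.373 counts of miR-92a-3p for each count of miR-19b-3p in tDR libraries, against 0.429 to 0.678 in scramble libraries. Both of these members have an X-linked copy, so miR-92a-3p was also set over miR-19a-3p, which has none. The copy of miR-92a-3p stays in that ratio, which was 1.04 to 1.18 in tDR libraries and 1.25 to 1.90 in scramble libraries. Over miR-25-3p, the seed relative from another transcript, miR-92a-3p stood at 3.95 ± 0.593 in tDR libraries and 5.61 ± 0.330 in scramble libraries (SD, n = 4 each). The ranges of 3.46 to 4.68 in tDR libraries and 5.21 to 5.92 in scramble libraries did not overlap. All of these ratios have miR-92a-3p as numerator, so they are not separate results. Between members without such a gap, miR-17-5p over miR-20a-5p was 1.37 ± 0.0681 in tDR libraries and 1.41 ± 0.119 in scramble libraries. The ratio of miR-19b-3p to miR-19a-3p was 3.12 ± 0.0804 in tDR libraries and 2.86 ± 0.137 in scramble libraries, with overlapping groups.

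Strands cut from the same hairpins and microRNAs of the same seeds gave no further edgeR call. Of the 6 passengers with counts, 5 were tested and edgeR called 0 in either direction, with 2 lower at an unadjusted p below 0.05 and 1 called lower by DESeq2. The sixth, miR-19a-5p, with 5 to 29 counts a library, was not tested. The passenger of the second lowest member, miR-18a-3p, had 25.8, 19.6, 16.0 and 10.9 CPM in tDR libraries 1 to 4, against 20.4, 28.4, 31.2 and 35.4 CPM in scramble libraries 1 to 4 (log2 fold change -0.68, edgeR adjusted p = 0.0860). It overlapped between the groups, as its guide did. The passenger miR-92a-1-5p stood at a log2 fold change of 0.20, and the rest at -0.34 (miR-17-3p), -0.64 (miR-19b-1-5p) and 0.23 (miR-20a-3p).

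Of the 10 listed relatives on other transcripts 8 were counted and 7 tested, and edgeR called 0 of them in either direction, with 2 lower at an unadjusted p below 0.05 and 1 called lower by DESeq2. All 7 were below 0, with a median log2 fold change of -0.41. The lowest were miR-92b-3p, at -0.92 (edgeR adjusted p = 0.0784), and miR-18b-5p, at -0.85 (adjusted p = 0.118), which carry the seeds of the 2 lowest members. The first had 5.86, 6.39, 2.50 and 2.51 CPM in tDR libraries 1 to 4, against 6.86, 6.92, 10.8 and 8.53 CPM in scramble libraries 1 to 4, so that its groups did not overlap. The far more abundant miR-25-3p, of the same seed as miR-92b-3p, stood at -0.30 with overlapping groups. Also of that seed, miR-32-5p was the highest of the 7 tested, at -0.13 (edgeR adjusted p = 0.864). Counts a library were low, at 18 to 98 for miR-92b-3p, 14 to 80 for miR-18b-5p and 17 to 71 for miR-32-5p. Summed by seed over members and relatives, the miR-92 family held 10.9% ± 0.458 of microRNA counts in tDR libraries and 13.9% ± 1.35 in scramble libraries, and the miR-18 family 2.99% ± 0.201 in tDR libraries and 3.51% ± 0.149 in scramble libraries (SD, n = 4 each). Neither family overlapped between the groups. These sums largely repeat the member shares above, since miR-92a-3p holds 82.1% of the counts of its family and miR-18a-5p 98.0%. The miR-17 family held 6.14% ± 0.443 in tDR libraries and 6.02% ± 0.347 in scramble libraries, and the miR-19 family 32.6% ± 2.35 in tDR libraries and 31.9% ± 3.54 in scramble libraries (SD, n = 4 each), and both overlapped.

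Across the 8 libraries the members moved together. Pearson's r of log2 CPM between pairs of members ran from 0.793, for miR-19b-3p and miR-92a-3p, to 0.987, for miR-19a-3p and miR-19b-3p. The libraries that make these points also share their microRNA content, so the values describe them and carry no test. Among 45 other microRNAs averaging at least 100 counts, the median r with the summed cluster level was 0.866. The 5 most alike were miR-148a-3p (0.976), miR-221-3p (0.967), miR-21-5p (0.964), miR-301a-3p (0.953) and miR-222-3p (0.951).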

How the data were processed

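The 6 guide strands and the lists of passengers, relatives and markers were chosen with earlier results of these data known, and all are named. The 5 microRNAs most like the cluster were named by the highest Pearson's r over the 8 libraries among tested microRNAs averaging at least 100 counts.

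The authors deposited whole-number read counts per small RNA feature. Build hg38 is named per the submitters' processing notes, but the sources used here name no aligner, counter or annotation. They also deposited a normalized signal, which on comparison with the counts is the count divided by a factor per library, separate for tRNA features and the rest. The 2 entries for the control mimic stayed out of library sizes and tests. At the library totals given above, a count of 0 allows 2.93e-05% to 7.47e-05% of a library (3 counts), and intervals and floors cover counting error only.

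Features passing filterByExpr were tested with edgeR 4.0.16 (R 4.3.3), using TMM factors and a robust quasi-likelihood F test of 4 tDR against 4 scramble libraries without covariates, at a Benjamini-Hochberg adjusted p below 0.05, after tests on simulated data. This left 1761 features tested and 1201 not tested. SE was taken from the F statistic, as the log2 fold change over its square root. Shares and ratios were set side by side over libraries, with exact permutation tests for single members. Summed levels were given no test. Alternatives used DESeq2 1.42.0, limma 3.58.1, other scalings and filters, a replicate block and leaving out libraries. Leaving out tDR libraries 3 and 4 together and the authors' factors in edgeR were chosen after seeing the data. No 2 replicates were copies, since chi-square over degrees of freedom was 15.5 or more in all 12 pairs. Python 3.11.15 with pandas 2.3.3, numpy 2.4.6, scipy 1.17.1 and matplotlib 3.10.9 was used for tables and figures.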

Additional observations from a re-analysis of the deposited data

Results flagged for a closer look

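Dixon's ratio at the 95% level was applied to 40 groups of 4 values, of which chance alone marks about 1 in 20, and it marked 3. In scramble library 1 the share of miR-92a-3p in the 6 guide strands was 27.3%, while the other 3 scramble libraries lay between 20.5% and 21.2%. In the same library the share of miR-17-5p was 6.93%, while the other 3 lay between 5.51% and 5.69%. In scramble library 3 the guide strand made up 97.4% of the counts of both arms of MIR17, while the other 3 lay between 95.5% and 95.8%.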

How the results depend on the processing

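The number of guide strands called, 1 with edgeR as described, was 2 with RLE factors, with total counts, without a filter, with a floor of 50 on the mean count, with limma on the deposited normalized values or with DESeq2. It was 0 with TMM on microRNAs alone, with the replicate block or without tDR libraries 3 and 4. Leaving out each library in turn gave 0 to 2, with 0 without tDR library 4 or scramble library 4. In every one of these fits the calls were lower in tDR libraries. Over 19 alternatives miR-92a-3p was called in 14, with log2 fold changes of -0.94 to -0.45 and adjusted p-values of 0.00165 to 0.199, and miR-18a-5p in 9, with -0.77 to -0.27, while the other 4 members were called in 0. The sign changed for miR-17-5p (0.024) and miR-19b-3p (0.033) without tDR libraries 3 and 4, and for miR-20a-5p (0.024) and miR-19b-3p (0.017) with TMM on microRNAs alone, and the cause was not tested. Features called overall numbered 118, against 185 with limma on the deposited values, 191 with DESeq2 and 65 (without scramble library 2) to 164 (without tDR library 1) when each library was left out. Of the 2 shares of the 6 that did not overlap, 0 remained when the shares were taken over the 4 members without a second locus, which leaves both of those members out. Hairpins whose guide share did not overlap numbered 0, against 1 without tDR libraries 3 and 4 and 0 to 2 when each library was left out. Steps in the order of yields that held in all libraries used numbered 4 of 5 under every alternative run. Since these 4 steps held in all 8 libraries, leaving libraries out could not lower that number. Mature lengths of 22 or 23 bases also change the ratios little, so the number does not test how robust the order is.

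Replicate numbers are shared by the groups, and the labels do not say whether they mark pairs. Same-numbered libraries did not deviate together (r of -0.345, -0.183, -0.260 and -0.120), but these few values cannot exclude pairing. With the replicate block edgeR called 39 features and 0 guide strands (miR-92a-3p at -0.82, adjusted p = 0.118), and 2 hairpins differed the same way in all 4 same-numbered differences. Low counts limit the passengers miR-19a-5p and miR-92a-1-5p, with 79 and 91 counts in all.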
